A study of Rattus norvegicus with 2 samples.

Results

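The genes described are integrins and the proteins that assemble at their inner face, in acetabular cartilage of 3-week-old Wistar rats. They were taken by symbol: every row whose symbol starts with Itga or Itgb and a digit, plus 25 genes listed by name. This gave 43 of the 17337 genes in the table, 19 by the first route and 24 by the second. The 19 were 8 alpha chains, 8 beta chains and 3 proteins named after a chain that they bind. Tln2 was listed but had no row. Itga2, Itga2b, Itga3 and Itga9 had none either, nor did Itgav, whose symbol the rule would not have taken in. These genes were not analysed here, so the alpha chain of integrin αVβ3 was not seen.

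The control library was made from pooled RNA of 4 rats raised without restriction. The DA-DDH library was made from pooled RNA of 5 rats that were swaddled for 10 days after birth with hips adducted and extended and knees extended, and were then free to move, a disarticulation model of developmental dysplasia of the hip. Both groups were the same strain and age, sex was not evaluated, and acetabula of both sides were used. Because each condition is a single library, the spread between animals is unknown, and no test of the conditions was made. Depth came to 796723 reads for control and 833869 for DA-DDH. Reads were scaled by TMM, which sets the libraries level on the bulk of the genes, and a log2 ratio is DA-DDH over control after a prior of 0.5 reads. A gene was at the floor when the library with more held at least 30 reads. Each interval is a 95% exact conditional binomial interval and, like the 3 reads that a count of 0 allows (4.36 CPM, the TMM-scaled reads relative to library size, in control and 3.10 CPM in DA-DDH), covers counting error only. Scaling by total reads would raise the log2 ratios by about 0.43. Cartilage markers were abundant in both libraries, with Col2a1 at 233705 reads in control and 95275 in DA-DDH.

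Integrins are receptors made of 1 alpha and 1 beta chain that span the cell membrane and hold the cell to its matrix. Their beta tails are bound by talin and kindlin, and talin is stretched by actin so that vinculin can bind it. Focal adhesion kinase and Src signal from this complex, while filamin, alpha-actinin, tensin and zyxin tie it to the actin fibers. In cartilage, integrins of the β1 class bind the collagens and fibronectin around the chondrocyte and take part in how it senses load.

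In the DA-DDH library, 4 of the 32 genes at the floor were over 2-fold higher, namely Itga7, Itgb3, Vcl and Cav1, and 1 was over 2-fold lower, Itga10. Over all 4375 genes at the floor, 4.82% were over 2-fold higher and 3.04% over 2-fold lower. The median log2 ratio of the 32 was 0.30, beside 0.03 for all genes, and 25 of them, or 78.1%, lay above 0, beside 52.6% of all genes. The interval lay wholly above 0 for 11 of the 32 and wholly below for 2, beside 13.8% and 14.1% of all genes. The 11 were Itga5, Itga7, Itga11, Itgb1, Itgb3, Vcl, Flna, Actn1, Actn4, Tns1 and Cav1, and the 2 were Itga10 and Tns3. These counts include 4 genes that passed the floor through DA-DDH alone (Itga4, Itga7, Itgb3 and Src) and 1 that passed it through control alone (Lims2), so they are not counts over all 43. The 11 genes under the floor are given with their reads in the sections on their roles. Among the 27 genes with 30 reads in both libraries, 21 lay above 0, beside 42.6% of the 3119 such genes in all. Of these 27, Vcl and Cav1 were over 2-fold higher, beside 1.19% of all, and Itga10 was over 2-fold lower, beside 2.47%. With a floor of 60 reads summed over both libraries, 3 of 29 were over 2-fold higher and 1 lower, beside 2.73% and 3.00% of 3735 genes. With total-count scaling 7 of the 32 were over 2-fold higher and 0 lower, beside 14.6% of all genes higher, the members gained being Flna at 1.20, Src at 1.14 and Itga4 at 1.00, and the share of higher genes among all genes over 2-fold was 93.1% in place of 61.3%. Under that scaling 29 of the 32 lay above 0, beside 83.2% of all genes. The members that changed sign were Tln1, Ilk, Vasp and Pxn, each below 0 with TMM scaling and with an interval that includes 0.

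**Figure D1:**
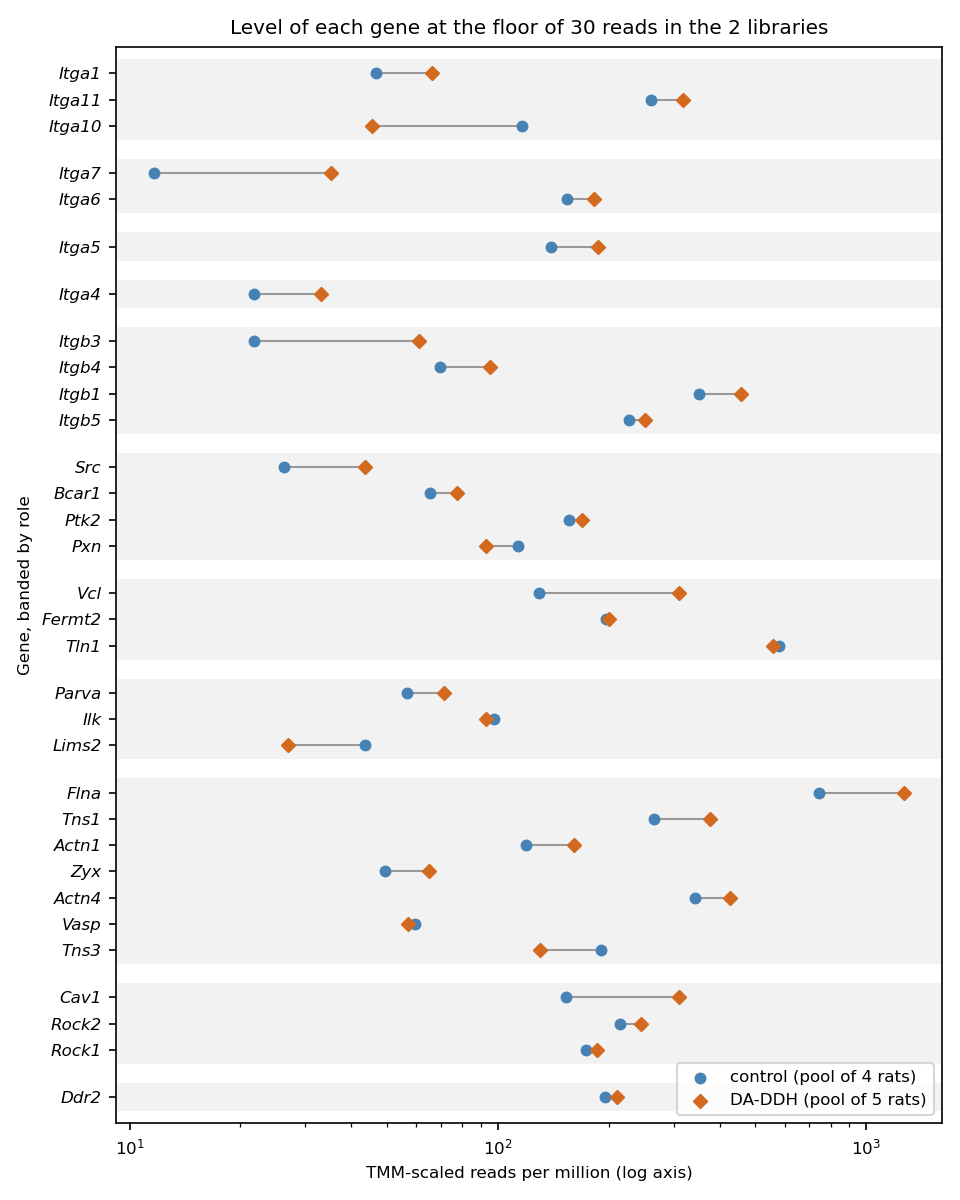
TMM-scaled CPM (log axis) of the 32 genes at the floor in the control library (blue circles) and the DA-DDH library (orange diamonds), with gray bands for roles. Vcl and Cav1 are well to the right in DA-DDH, Itga10 is to the left, and Tln1, Fermt2, Ilk and Vasp nearly coincide.

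Among the genes at the floor with a RefSeq promoter entry, Vcl had the highest log2 ratio and Itga10 the lowest, and the 250 bases before their starts are shown for that reason. Itgb3 and Itga7 have no entry. They are from RefSeq on build GRCr8, chr15:3404801-3405050 on the minus strand for Vcl and chr2:186871461-186871710 on the plus strand for Itga10. Capitals mark GGAATG, the core letters of the TEAD motif, or its reverse complement.
Vcl: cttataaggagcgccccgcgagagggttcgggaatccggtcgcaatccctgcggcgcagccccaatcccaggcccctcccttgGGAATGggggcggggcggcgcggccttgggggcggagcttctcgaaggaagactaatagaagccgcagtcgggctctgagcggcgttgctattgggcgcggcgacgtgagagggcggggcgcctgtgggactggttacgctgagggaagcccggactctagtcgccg
Itga10: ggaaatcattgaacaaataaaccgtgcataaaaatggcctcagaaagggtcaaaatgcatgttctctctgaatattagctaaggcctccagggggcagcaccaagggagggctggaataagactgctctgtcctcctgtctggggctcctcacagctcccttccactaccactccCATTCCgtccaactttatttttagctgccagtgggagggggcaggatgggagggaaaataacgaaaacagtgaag
The match begins 167 bases before the start in Vcl, on the strand shown, and 75 bases before it in Itga10, on the other strand, so the higher and the lower gene both hold it. The members with a promoter entry, also 32 but not the same set as the 32 at the floor, had 39 promoter windows. On either strand, GGAATG occurred in 9 of these 39 and in 12.1% of all 33469 windows. The AP-1 letters TGANTCA occurred in 0 of the 39 and in 6.34% of all windows. The CArG box, the motif of serum response factor, occurred in 1 of the 39, that of Itgb6, and in 1.5% of all windows. In 0 of the member windows did matches of 2 motifs overlap, and a match is only a match of letters.

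The collagen-binding alpha chains parted in direction. Itga10 encodes α10, a chain that pairs with β1 into a type II collagen receptor typical of chondrocytes. It had 80 reads in control and 44 in DA-DDH, which is 2.54-fold lower (log2 ratio -1.34, interval -1.92 to -0.81). It was the only integrin chain at the floor below 0. Itga11, the α11 chain, a receptor for fibrillar collagen on mesenchymal cells and fibroblasts, had 179 and 307 reads (0.29, interval 0.02 to 0.56). The 5 fibroblast markers were all above 0, with a median log2 ratio of 0.49. Their summed reads, 1434 and 3463 (0.78, interval 0.69 to 0.87), were mostly those of Postn, with 762 and 2269. Immunostaining in the paper placed Postn in acetabular cartilage as well as in fibrous tissue touching it. The other markers, Pdgfra, Thy1, Dpt and Dcn, ran from 0.11 to 0.81. The part of fibroblast RNA in the Itga11 difference was not tested. Itga1, the α1 chain, had 32 and 64 reads (0.50, interval -0.13 to 1.17). Summed over the 3 genes the reads were level (291 and 415, 0.02, interval -0.20 to 0.24), while the shares within them differed. Itga10 held 27.5% of those reads in control (95% exact binomial interval 22.4 to 33) and 10.6% in DA-DDH (7.81 to 14.0). Itga11 held 61.5% (55.7 to 67.1) and then 74.0% (69.5 to 78.1). Such shares do not depend on the scaling, and the ratio of Itga10 to Itga11 differed between the libraries by -1.64 on the log2 scale (interval -2.27 to -1.02).

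In rn6, Itga10 spans chr2:198772937-198792253 (plus strand) with 30 annotated exons, and it shares no exon base with another gene of the table. Per kb of exon it had 23.1 CPM in control and 9.04 in DA-DDH. Cartilage markers were lower in the same library, with all 6 of the list below 0 and a median log2 ratio of -1.41. The ratio of Itga10 to Sox9, the transcription factor of chondrocytes, differed by -0.09 (interval -0.69 to 0.50), and that of Itga10 to Col2a1 by 0.43 (interval -0.13 to 0.98). Sox9, at -1.26, was the marker nearest to Itga10, and the list was spread. Col2a1, Matn1 and Col9a1, at -1.79, -1.78 and -1.56, lay below Itga10, while Acan and Comp, at -0.99 and -0.47, lay above it. In bulk RNA, fewer cells of a type and less RNA per cell cannot be told apart. With total-count scaling Itga10 was at -0.92, inside 2-fold.

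Collagen is also bound by the discoidin domain receptors, which are receptor tyrosine kinases and not integrins. Ddr2, the form of mesenchymal cells and chondrocytes, which binds fibrillar collagen, had 134 and 203 reads (0.11, interval -0.21 to 0.43). Ddr1, with 11 and 9 reads, was under the floor. Ddr2 to Itga11 differed by -0.18 (interval -0.61 to 0.25), so at this depth these 2 collagen receptors were not separated from each other.

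**Figure D2:**
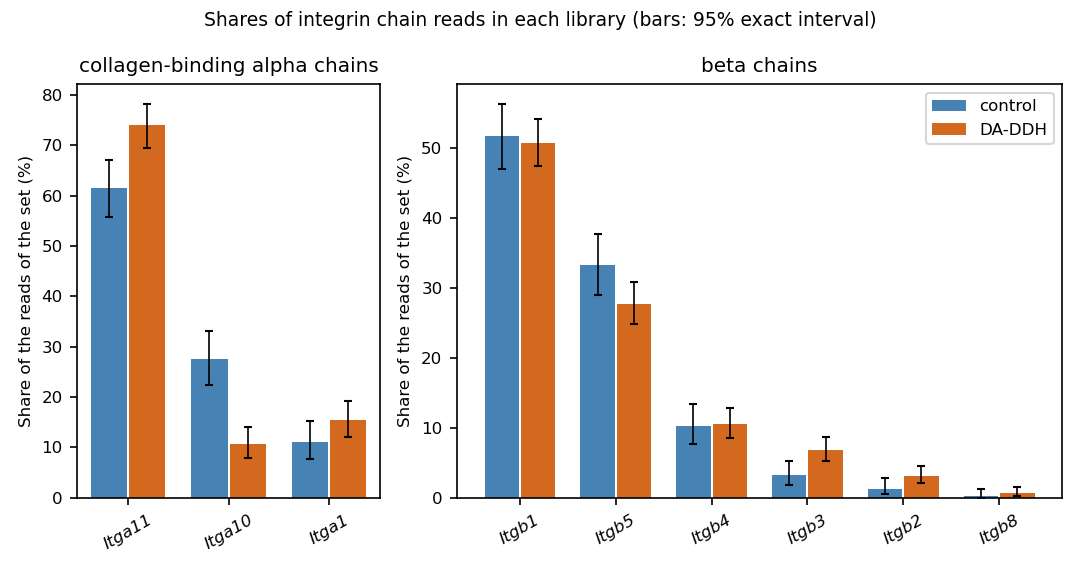
Share of reads (%) of each chain among the collagen-binding alpha chains (left) and the beta chains (right) in the control (blue) and DA-DDH (orange) libraries, with 95% exact binomial intervals for counting error. Itga10 is at 27.5% and 10.6% and Itgb3 at 3.21% and 6.77%, while Itgb1 is at 51.7% and 50.8%. Itgb6 and Itgb7, at 0 to 3 reads, are not drawn.

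Laminin, fibronectin and related ligands are bound by other alpha chains. Itga7, the α7 chain, which is the main laminin receptor of skeletal muscle, had 8 reads in control and 34 in DA-DDH (1.55, interval 0.46 to 2.92). Its exons share 16 bases with Mettl7b on the opposite strand, which had 0 reads in both libraries. Whether reads were counted by strand is not known, so reads in such overlaps, here and for 4 other members, cannot be told apart. The 8 skeletal muscle markers were all higher in the same library (540 and 2108 summed reads), and the ratio of Itga7 to skeletal actin Acta1 differed by -0.00 with a wide interval of -1.18 to 1.35. Log2 ratios of these markers ran from 0.95 to 1.62, with Acta1 at 1.59. The part of muscle RNA in the Itga7 difference was not tested. Itga6, a laminin receptor chain of epithelia and vessels, had 106 and 176 reads (0.24, interval -0.12 to 0.60). Itga5, the chain of the classical fibronectin receptor, had 96 and 181 (0.42, interval 0.06 to 0.80). Itga4, a chain of leukocytes and mesenchymal cells, had 15 and 32 (0.59, interval -0.33 to 1.59). Itga8, a partner of β1 on mesenchymal cells, had 4 and 15 reads and was under the floor.

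Among the beta chains, Itgb1 and Itgb5 held most reads in both libraries. Itgb1, the β1 chain that pairs with most alpha chains of cartilage, had 242 reads in control and 443 in DA-DDH (0.38, interval 0.15 to 0.61). Itgb5, the β5 chain, an αV partner that binds vitronectin, had 156 and 242 (0.14, interval -0.15 to 0.44). Itgb4, the laminin-binding β4 chain of hemidesmosomes, had 48 and 92 (0.44, interval -0.07 to 0.98). Itgb1 was at 51.7% of beta chain reads in control and 50.8% in DA-DDH.

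Itgb3 encodes β3, the partner of αV in a receptor whose blocking the study examined in cultured chondrocytes, and the partner of αIIb on platelets. It had 15 reads in control and 59 in DA-DDH, which is 2.75-fold higher (log2 ratio 1.46, interval 0.65 to 2.41). Its share of beta chain reads was 3.21% in control (interval 1.80 to 5.23) and 6.77% in DA-DDH (5.19 to 8.64), and these intervals overlap slightly. The ratio of Itgb3 to Itgb1 differed by 1.10 (interval 0.23 to 2.06) and that of Itgb3 to Itgb5 by 1.34 (interval 0.44 to 2.32). Itgb3 passed the floor through DA-DDH alone, so the filter favoured ratios above 0, and these intervals add no support for a difference. In rn6, Itgb3 spans chr10:92667872-92783413 (plus strand) in 18 exons. Even in DA-DDH it had 28.4 CPM per kb of exon, below Itgb1 at 125.2 and Itgb5 at 68.0.

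Several cell types other than chondrocytes carry β3. The platelet and megakaryocyte markers Pf4, Ppbp, Gp9, Gp1ba and Gp5 had 3 reads in control and 8 in DA-DDH in all, with Ppbp and Gp5 at 0 in both. Of the osteoclast markers, Calcr had 0 reads in both libraries and Oscar 1 in each, while Ctsk had 41 and 108 (0.90, interval 0.37 to 1.46), Acp5 45 and 57 (-0.15, interval -0.74 to 0.45) and Mmp9 114 and 77 (-1.05, interval -1.49 to -0.63). Of the 3 osteoclast markers at the floor, 1 thus lay above 0 and 2 below, and the interval of Acp5 includes 0. The 6 endothelial markers went from 220 to 737 reads (1.25, interval 1.03 to 1.48), and Itgb3 to the endothelial cadherin gene Cdh5 differed by 0.42 (interval -0.52 to 1.44). Log2 ratios of these endothelial markers ran from 0.92 to 2.26, with Cdh5 at 1.05. Macrophage and leukocyte markers at the floor ran from 1.29 to 1.81, with a median of 1.51, and all but Lyz2 passed the floor through DA-DDH alone. The part of endothelial, osteoclast or leukocyte RNA in the Itgb3 difference was not tested.

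Itgb2, the β2 chain of leukocytes, had 6 and 27 reads and stayed under the floor, as did Itgb8, an αV partner, with 1 and 6. Itgb6, an epithelial chain, had 0 and 3 reads, and Itgb7, a lymphocyte chain, had 0 in both. The partners of β2 and β7 outside the rule, Itgal, Itgam, Itgad and Itgae, had 14 reads in control and 43 in DA-DDH together. The 6 macrophage and leukocyte markers went from 146 to 562 reads (1.45, interval 1.19 to 1.73). The part of leukocyte RNA in these chains was not tested. The proteins named after a chain were under the floor as well. Itgb1bp1, which binds the β1 tail and limits activation, had 10 and 13 reads. Itgb1bp2, the muscle protein melusin, had 2 in each library, and Itgb3bp, which acts at the centromere, had 3 and 5.

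**Figure D3:**
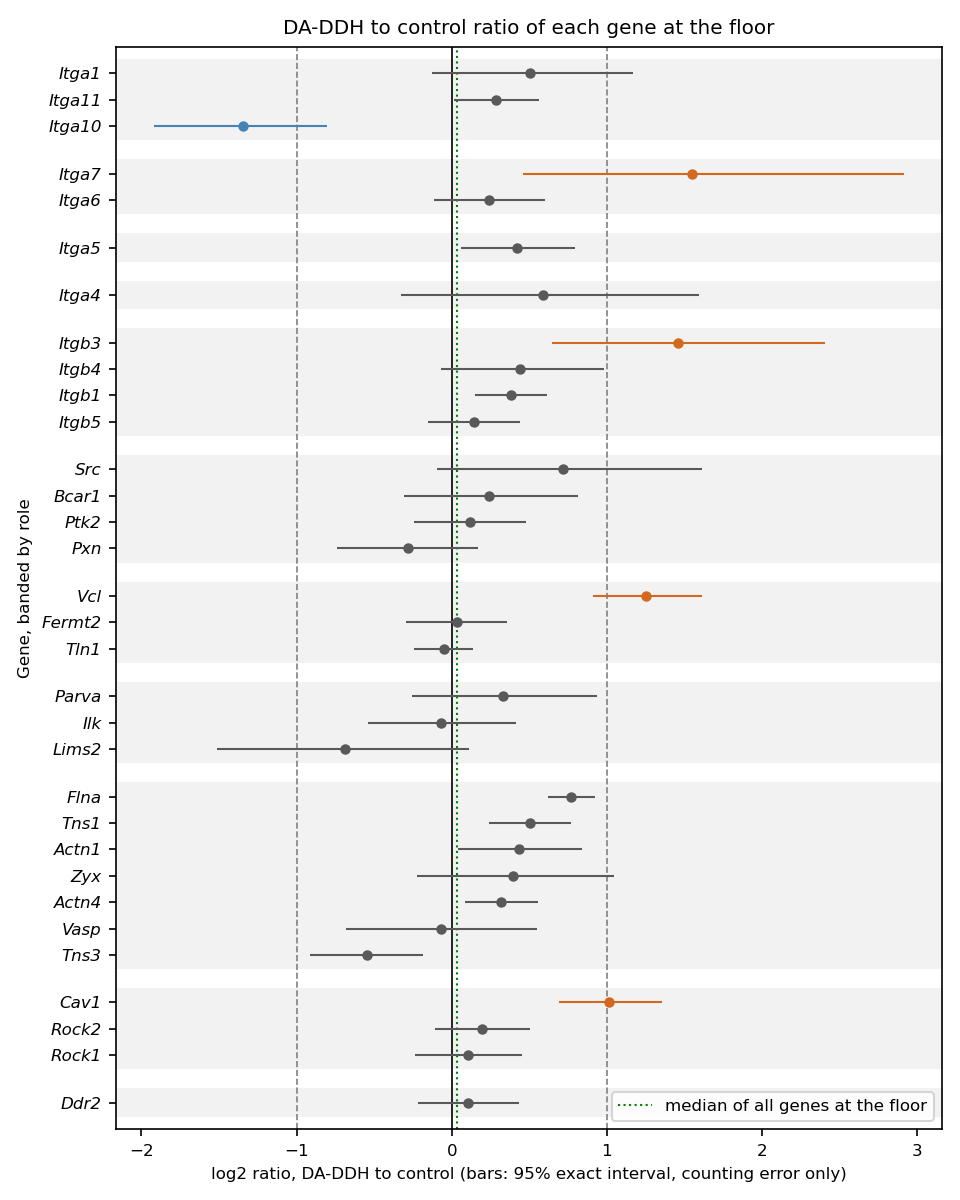
log2 ratio of DA-DDH to control for the 32 genes at the floor, grouped in gray bands by role, with 95% exact conditional binomial intervals for counting error, dashed lines at 2-fold and a dotted line at the median of all genes, 0.03. Itga7, Itgb3, Vcl and Cav1 are right of the 2-fold line and Itga10 is left of it, while the intervals of Itga7 and Itgb3 are wide.

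At the beta tail, talin and kindlin were level and vinculin was not. Tln1, talin 1, the link from the integrin tail to actin, had 398 reads in control and 540 in DA-DDH (-0.05, interval -0.24 to 0.14). Fermt2, kindlin 2, which activates integrins with talin, had 135 and 194 (0.03, interval -0.29 to 0.36). Vcl, vinculin, which reinforces talin under tension, had 89 and 299, 2.38-fold higher at a log2 ratio of 1.25 (interval 0.91 to 1.61). Set against each other, Vcl and Tln1 reads gave a Vcl share of 18.3% in control (interval 14.9 to 22) and 35.6% in DA-DDH (32.4 to 39.0), a difference in ratio of 1.31 (interval 0.91 to 1.71) that does not depend on scaling. In rn6, Vcl spans chr15:3455211-3544685 (minus strand), and its 21 exons overlap no other gene of the table. Tln1 shares 35 exon bases with Creb3, which had 40 and 39 reads.

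Vinculin is also abundant in muscle, where a longer form, metavinculin, comes from the same gene. Skeletal muscle markers were higher by 1.47 in summed reads (interval 1.34 to 1.61) and smooth muscle markers by 0.71 (interval 0.50 to 0.92). Vcl to Acta1 differed by -0.34 (interval -0.78 to 0.10) and Vcl to Myh11, the smooth muscle myosin, by 0.34 (interval -0.13 to 0.82). Acta1 and Myh11 are single markers of their lists. Skeletal muscle markers ran from 0.95 to 1.62, with Acta1 at 1.59 and Vcl, at 1.25, inside that range. Smooth muscle markers at the floor ran from 0.23 for Acta2 to 0.91 for Myh11, so Vcl lay further above the others than above Myh11. The part of muscle RNA in the Vcl difference was not tested.

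Of the kinases and scaffolds of the adhesion 0 were over 2-fold with TMM scaling, and Src was with total-count scaling. Ptk2, focal adhesion kinase, had 107 reads in control and 163 in DA-DDH (0.11, interval -0.25 to 0.48). Src, the kinase that acts with it, had 18 and 42 (0.72, interval -0.10 to 1.61). Bcar1, the stretch-sensitive Src substrate p130Cas, had 45 and 75 (0.24, interval -0.31 to 0.81). Pxn, the scaffold paxillin, was on the other side of 0 with 78 and 90 reads (-0.28, interval -0.74 to 0.17). All 4 intervals include 0, and summed they came to 248 and 370 reads (0.09, interval -0.15 to 0.32). RNA reads say nothing of phosphorylation, through which these proteins act. The genes of the complex of integrin-linked kinase, PINCH and parvin summed to 159 and 239 reads (0.10, interval -0.20 to 0.39), with members on both sides of 0. Ilk had 67 and 90 reads (-0.07, interval -0.54 to 0.41) and shares 33 exon bases with Taf10. Parva, α-parvin, had 39 and 69 (0.33, interval -0.26 to 0.94), and Lims2, PINCH2, had 30 and 26 (-0.69, interval -1.51 to 0.11). Lims1 with 12 and 27 reads and Parvb with 11 and 27 were under the floor.

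The actin linkers were higher as summed reads, and most of that was filamin A. All 7 together had 1216 reads in control and 2402 in DA-DDH (0.49, interval 0.39 to 0.59). Flna, which crosslinks actin and binds β tails, had 511 and 1227 (0.77, interval 0.62 to 0.92), the narrowest interval of the 32 genes, and was 1.71-fold higher. It held 42.0% of the actin linker reads in control (interval 39.2 to 44.9) and 51.1% in DA-DDH (49.1 to 53.1). The tensins, which bind β tails at the later fibrillar adhesions, went opposite ways. Tns1 had 182 and 363 reads (0.50, interval 0.24 to 0.77) and Tns3 131 and 126 (-0.55, interval -0.91 to -0.18), so that their ratio differed by 1.05 (interval 0.60 to 1.5). With total-count scaling Tns3 was at -0.12.

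The alpha-actinins of non-muscle cells were Actn1, with 82 and 156 reads (0.43, interval 0.04 to 0.84), and Actn4, with 235 and 412 (0.32, interval 0.08 to 0.56). Actn4 shares 337 exon bases with Capn12, which had only 4 and 3 reads. Zyx, zyxin, which gathers at strained actin fibers, had 34 and 63 reads (0.39, interval -0.23 to 1.04) and shares 144 exon bases with Epha1, at 3 and 8 reads. Vasp, which lengthens actin filaments, had 41 and 55 (-0.07, interval -0.68 to 0.55). The kinases Rock1 and Rock2, which drive myosin contraction, were close to level, with Rock1 at 119 and 180 reads (0.10, interval -0.24 to 0.45) and Rock2 at 147 and 237 (0.20, interval -0.11 to 0.50).

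Cav1, caveolin 1, forms membrane caveolae that buffer tension and take up integrins. It had 105 reads in control and 299 in DA-DDH, only just over 2-fold higher (log2 ratio 1.01, interval 0.69 to 1.35). In rn6 it spans chr4:44597123-44630202 (plus strand) in 3 exons. Cav2, its neighbor and partner, had 12 and 34 reads (0.99, interval 0.03 to 2.10). Sdpr (cavin 2) was at 1.25 (12 and 41 reads). Both passed the floor through DA-DDH alone, so the filter favoured ratios above 0. With 30 reads in both libraries, Prkcdbp (cavin 3) was at 0.80 (45 and 111) and Ptrf (cavin 1) at 0.37 (265 and 483). Caveolae are dense in endothelium, and the ratio of Cav1 to Cdh5 differed by -0.04 (interval -0.57 to 0.49). Among the endothelial markers Cdh5, at 1.05, was the nearest to Cav1. The 6 markers ran from 0.92 for Pecam1 to 2.26 for Vwf, with a median of 1.34. The part of endothelial RNA in the Cav1 difference was not tested.

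**Figure D4:**
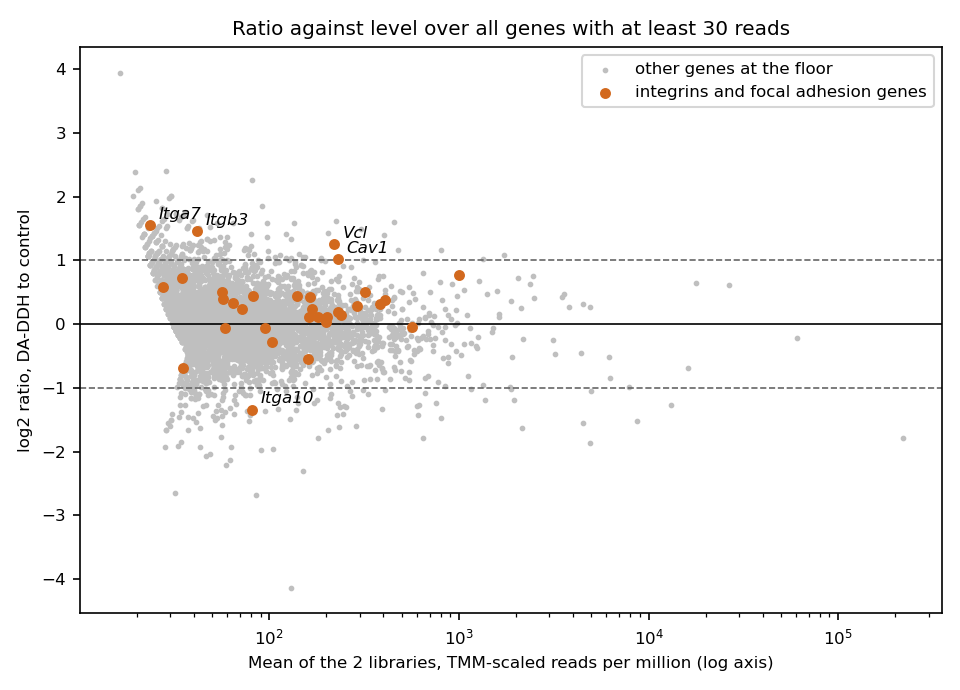
log2 ratio against mean TMM-scaled CPM (log axis) for the 4375 genes at the floor, with the 32 integrin and focal adhesion genes in orange and dashed lines at 2-fold. Vcl, Cav1, Itga7 and Itgb3 are above the upper line, Itga10 is below the lower one, and Vcl and Cav1 have more reads than Itga7 and Itgb3.

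Beyond these members, 59 further genes of the focal adhesion pathway had a row, and 40 were at the floor. Of these 40, 3 were over 2-fold higher, 0 were over 2-fold lower, beside 4.82% and 3.04% of all genes, and the median log2 ratio was 0.14. The higher ones were Sdpr, Actn3, the alpha-actinin of fast muscle fibers (4 and 32 reads, 2.39, interval 1.01 to 4.47), and Myl9, a myosin light chain of smooth muscle and contractile cells (16 and 46, 1.01, interval 0.18 to 1.95). All 3 passed the floor through DA-DDH alone, so their count is no support for a difference of the pathway. Fyn, a kinase of the Src family, had 39 and 102 reads (0.89, interval 0.35 to 1.47), and Src to Fyn differed by -0.16 (interval -1.19 to 0.89).

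Of 14 ligand genes of these receptors at the floor, 10 were above 0, beside 52.6% of all genes. The ligands were chosen after their values were seen, so this count is no support for a difference. Periostin Postn, an αV integrin ligand, had 762 and 2269 reads (1.08, interval 0.96 to 1.20) and fibronectin Fn1, the α5β1 ligand, 9560 and 21118 (0.65, interval 0.62 to 0.69). Thrombospondin 1, Thbs1, was over 2-fold lower with 1722 and 1200 reads (-1.01, interval -1.12 to -0.91). The collagen genes lay on both sides of 0. Col1a1 and Col2a1, the latter a ligand of α10β1, were at -0.22 and -1.79, while Col3a1 and Col4a1 were at 0.62 and 0.63. Vitronectin Vtn, the classical αV ligand, had 1 and 2 reads.

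**Figure D5:**
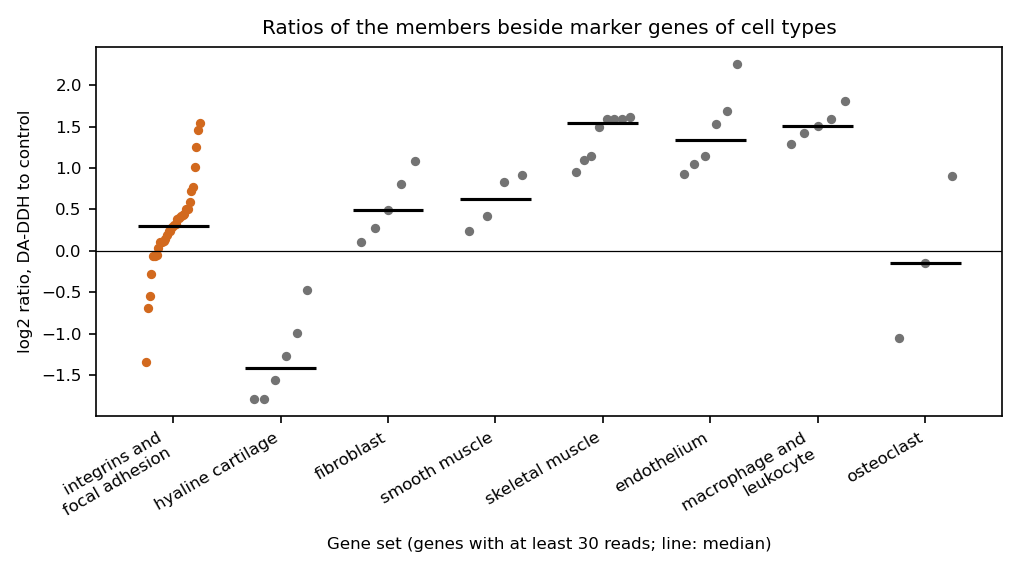
log2 ratio of DA-DDH to control of the 32 genes (orange) beside marker genes of cell types (gray), each point a gene with at least 30 reads and each line a median. The members, with a median of 0.30, spread from -1.34 to 1.55. Medians of cartilage (-1.41) and osteoclast (-0.15) markers are below theirs. Those of fibroblast (0.49), smooth muscle (0.62), endothelial (1.34), macrophage and leukocyte (1.51) and skeletal muscle (1.54) markers are above.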

How the data were processed

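RNA-seq libraries of acetabular cartilage were analysed, 1 of pooled control RNA and 1 of pooled DA-DDH RNA. The submitters' processing notes name TopHat, Cufflinks and the rat build rn6. How reads were counted, whether by strand and how reads with several matches were treated, was not stated in what was used here. The kit is TruSeq Stranded mRNA in the methods and SMARTer Stranded Total RNA-Seq Pico in the labels. The authors deposited a normalized signal per gene and library, in which the read count is multiplied by 1 factor per library. All values (100%, relative tolerance 1e-06) were whole multiples of 1.20 in control and 0.855 in DA-DDH, and reads were recovered by division. The table also holds the authors' fold change, p-value, q-value, rank and call, which were not used. Summed exon lengths came with the table.

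TMM factors (0.863 and 1.16) and exact tests at fixed dispersions were computed in edgeR 4.0.16, and median-of-ratios factors in DESeq2 1.42.0 (R 4.3.3). Other steps used Python 3.11.15, scipy 1.17.1 and matplotlib 3.10.9. The calculations were tested on simulated data. Members and lists were chosen with earlier results of these data known. Given in full were members over 2-fold, β3, FAK and Src, the extremes of each role and the collagen receptors, and others were named with their reads. Pathway genes outside the members were named when over 2-fold, and Cav2, Prkcdbp, Ptrf, Fyn, other integrin chains, ligands and markers were chosen after their values were seen. Promoters came from RefSeq (GRCr8). Alternatives were other scalings, priors, floors and thresholds.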

Additional observations from a re-analysis of the deposited data

How the results depend on the processing

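The counts of members over 2-fold (4 higher, 1 lower) were the same with median-of-ratios and upper-quartile scaling, with the values as deposited and with a smaller and a larger prior, and all 32 log2 ratios stayed within their intervals under these 5 alternatives. With total-count scaling, 18 of the 32 left their intervals, 7 members were over 2-fold higher and 0 lower, and over all genes 638 and 47 in place of 211 and 133. The members' median was then 0.73, that of all genes 0.45, and the summed reads of the members were at 0.77 in place of 0.34. With no floor beyond 1 read 8 members were higher, and 1967 and 1427 of all genes higher and lower (median 0.042). With a floor of 10 reads the counts over all genes were 722 and 418 (median 0.041), and with 100 reads 38 and 50 (median -0.012), with 2 members higher and 0 lower, as only 18 members reached that depth. With a floor of 60 summed reads, an alternative chosen after seeing the data, 102 of all genes were higher (median -0.017). With 30 reads in both libraries, chosen likewise, 2 members and 37 of all genes were higher and 77 of all genes lower, with medians of 0.24 for members and -0.076 for all genes. At 1.5-fold 7 members were higher and 2 lower, and 631 and 450 of all genes. By intervals wholly beyond 0, 11 members were higher and 2 lower, and 603 and 617 of all genes. EdgeR's exact test at a fixed dispersion compares the 2 libraries and not the conditions, and a gene passed at unadjusted p under 0.05 and over 2-fold. At dispersions of 0.01 and 0.04 the members over 2-fold all passed, but so did most of all genes over 2-fold. Passing at these 2 dispersions thus adds no support for a difference of the members. At 0.16 the count was 0 higher and 0 lower among members, beside 6 and 16 of all genes. The dispersion between like libraries cannot be had from 1 library each. No paired analysis was possible because each condition has 1 library. Leaving out a replicate was not possible for the same reason.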
